A study of Mus musculus with 7 samples.

Results

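The Hedgehog pathway loci examined here are 3 windows of the mouse genome (build mm9), taken around Shh on chromosome 5 from 28.5 to 29.9 Mb, around Ptch1 on chromosome 13 from 63.2 to 64.0 Mb and around Gli3 on chromosome 13 from 15.1 to 16.1 Mb. The members are all peaks with their midpoint inside a window, whatever their strength. They number 46 of 33915 peaks of Shox2 in limb, 39 of 33915 peaks of Pbx in limb and 23 of 15091 positions of Shox2 in palate, 108 of 82921 in all. The deposited list of 8999 regions shared by both limb factors contributes 12, and each of these 12 is 1 of the 46 limb Shox2 peaks with the same start and end.

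The peaks come from chromatin immunoprecipitation with sequencing (ChIP-seq), in which DNA bound to a protein is pulled down with an antibody and sequenced. Shox2 was precipitated through an HA tag with an anti-HA antibody, from limb and from palate of embryos labelled Shox2-HA at stage E12.5 (counted in embryonic days). Pbx was precipitated from limb of the same stage with an anti-Pbx antibody. Each of these groups is 1 library, so replicate error is unknown throughout, no test of a difference between groups was made, and a difference between libraries cannot be told apart from one between tissues or factors. The labels do not say whether embryos were pooled. The remaining 4 of the 7 libraries (input DNA of limb, anti-HA on a limb and palate mix of Shox2+/+ embryos without the tag, Shox2-HA in such a mix, all at E12.5, and E13.5 limb Shox2-HA) were not analysed here, so no background regions were set against the peaks. The lists give positions only, and depth is unknown. Each palate Shox2 entry is 1 bp wide, against median widths of 261 bp for limb Shox2 and 897 bp for limb Pbx. A share that involves palate therefore counts a 1 bp position inside a peak. It is not on the same scale as a share between the limb lists.

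Hedgehog signalling runs from a secreted ligand through a receptor to the Gli transcription factors. Shh, sonic hedgehog, is the ligand made at the posterior margin of the limb bud and in the epithelium of the palate. Ptch1 is its receptor, which holds the pathway off until the ligand binds, and is itself a target gene of the pathway. Gli3 is the effector that acts mainly as a repressor in the anterior limb bud when the ligand is absent. The limb expression of Shh depends on an enhancer far from the gene, inside an intron of its neighbour Lmbr1. Shox2 is a homeodomain factor needed for the proximal limb skeleton and for growth of the anterior palate, and Pbx proteins are TALE homeodomain factors that often bind DNA with other homeodomain proteins.

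In limb, Shox2 peaks were most numerous in the Gli3 window, Pbx peaks were most numerous in the Ptch1 window, and both were few in the Shh window. Peaks were counted by window and not assigned to a gene. Limb Shox2 had 5 peaks in the Shh window (3.57 per Mb), 13 in the Ptch1 window (16.2 per Mb) and 28 in the Gli3 window (28.0 per Mb), against 13.2 per Mb over the whole list. Limb Pbx had 4, 23 and 12 peaks in the same windows, which is 2.86 per Mb at Shh, 28.8 per Mb at Ptch1 and 12 per Mb at Gli3, against 13.2 per Mb over its whole list. Palate Shox2 had 7, 9 and 7 positions, or 5 per Mb at Shh, 11.2 per Mb at Ptch1 and 7 per Mb at Gli3, against 5.86 per Mb over its list.

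As a ratio to the genome, limb Shox2 stood at 0.271 around Shh (95% exact binomial interval 0.0880 to 0.633), 1.23 around Ptch1 (0.657 to 2.11) and 2.13 around Gli3 (1.41 to 3.07). Limb Pbx stood at 0.217 around Shh (0.0591 to 0.555), 2.18 around Ptch1 (1.38 to 3.27) and 0.911 around Gli3 (0.471 to 1.59). Palate Shox2 stood at 0.853 (0.343 to 1.76), 1.92 (0.878 to 3.64) and 1.19 (0.480 to 2.46) in the same order, and all 3 of these intervals include 1. With the first 50% of each list, 0 of the 4 Pbx peaks and 1 of the 7 palate positions around Shh remained. The intervals cover counting error only, and because neighbouring peaks are not independent they are too narrow.

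Windows as full as these were not rare in the genome. When the genome was divided into tiles of the same length as each window, keeping tiles with any peak, 281 of 2516 tiles (11.2%) held at least the 28 limb Shox2 peaks of the Gli3 window, and the fullest tile held 93. For the Ptch1 window, 369 of 3138 tiles (11.8%) held at least its 23 limb Pbx peaks. At Shh, 19.7% of 1821 tiles held no more than its 5 limb Shox2 peaks, and 17.9% held no more than its 4 Pbx peaks. Sparse windows of this kind are thus common in both limb lists. The last tile of a sequence can be shorter than the window, which can raise these shares of sparse tiles.

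**Figure D1:**
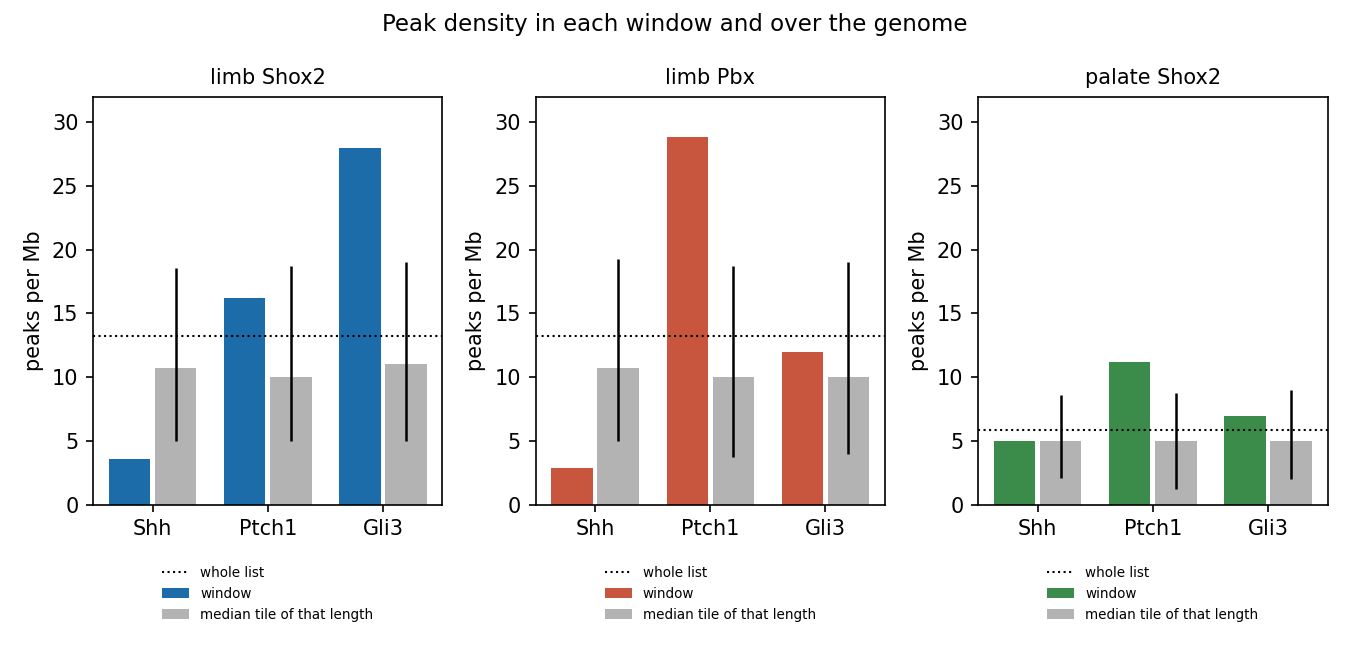
Peaks per Mb in the Shh, Ptch1 and Gli3 windows (coloured bars) beside the median of genome tiles of the same length (grey bars, with lines from the lower to the upper quartile), for limb Shox2, limb Pbx and palate Shox2. The dotted line is the whole list: limb Shox2 reached 28.0 per Mb at Gli3 and limb Pbx 28.8 per Mb at Ptch1, against 13.2 per Mb for each whole list.

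Around the ligand gene Shh, no list had a peak within 100 kb of 28.78 Mb, the position given for the gene to the nearest 10 kb. The limb Shox2 peak closest to it, chr5:28678524-28678898, lay 101 kb away on the side of lower coordinates. It stood on line 3744 of the 33915 lines of its list. Line numbers are given below as a percent of the list, with small values at the top, as a possible ranking that the files do not state. The closest limb Pbx peak, chr5:28615957-28616520, was 164 kb away on the same side. The closest palate Shox2 position, 29023727 on chromosome 5, was 244 kb away on the opposite side, which is the side of the distant enhancer, and it was also the earliest palate position of the window, at 24.2% of its list. No palate position was called in the first 524 kb of this window.

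Near the distant limb enhancer of Shh, placed at 29.64 Mb, 1 limb Shox2 peak and 1 palate Shox2 position were called within 50 kb, and no limb Pbx peak within 100 kb. The limb Shox2 peak, chr5:29619768-29620011, lay 20.1 kb from that position, 244 bp wide and at 55.5% of its list. The palate position, 29627354, lay 12.6 kb from it, and it was among the last of its list at 96.7%. These 2 were 7.46 kb apart and did not overlap. The closest limb Pbx peak, chr5:29813336-29814185, was 174 kb away, and it was the earliest of the Pbx peaks without Shox2 in this window, at 64.4% of its list. The files give no peak on the enhancer position itself, although a site with no called peak may still be bound below the threshold.

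Between the 2 landmarks, over 860 kb, there were 3 limb Shox2 peaks, 1 limb Pbx peak and 5 palate Shox2 positions. This stretch held the 1 site of the window that limb Shox2 and limb Pbx shared. There, the Shox2 peak chr5:29112141-29112475 was the earliest of the window in its list, at 5.17%, while the Pbx peak chr5:29112146-29112709 stood at 60.6% of the Pbx list. They shared 330 bp, and their centres were 119 bp apart. The limb Shox2 peak chr5:29203935-29204117, 91.6 kb from the centre of that Pbx peak, held the palate Shox2 position 29204062, which made it the 1 site of the window called in limb and palate alike. It was a narrow peak of 183 bp near the end of the limb list, at 90.3%, and the palate position stood at 56.3%. No peak of any list lay between 29.20 and 29.62 Mb, a stretch of 416 kb.

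**Figure D2:**
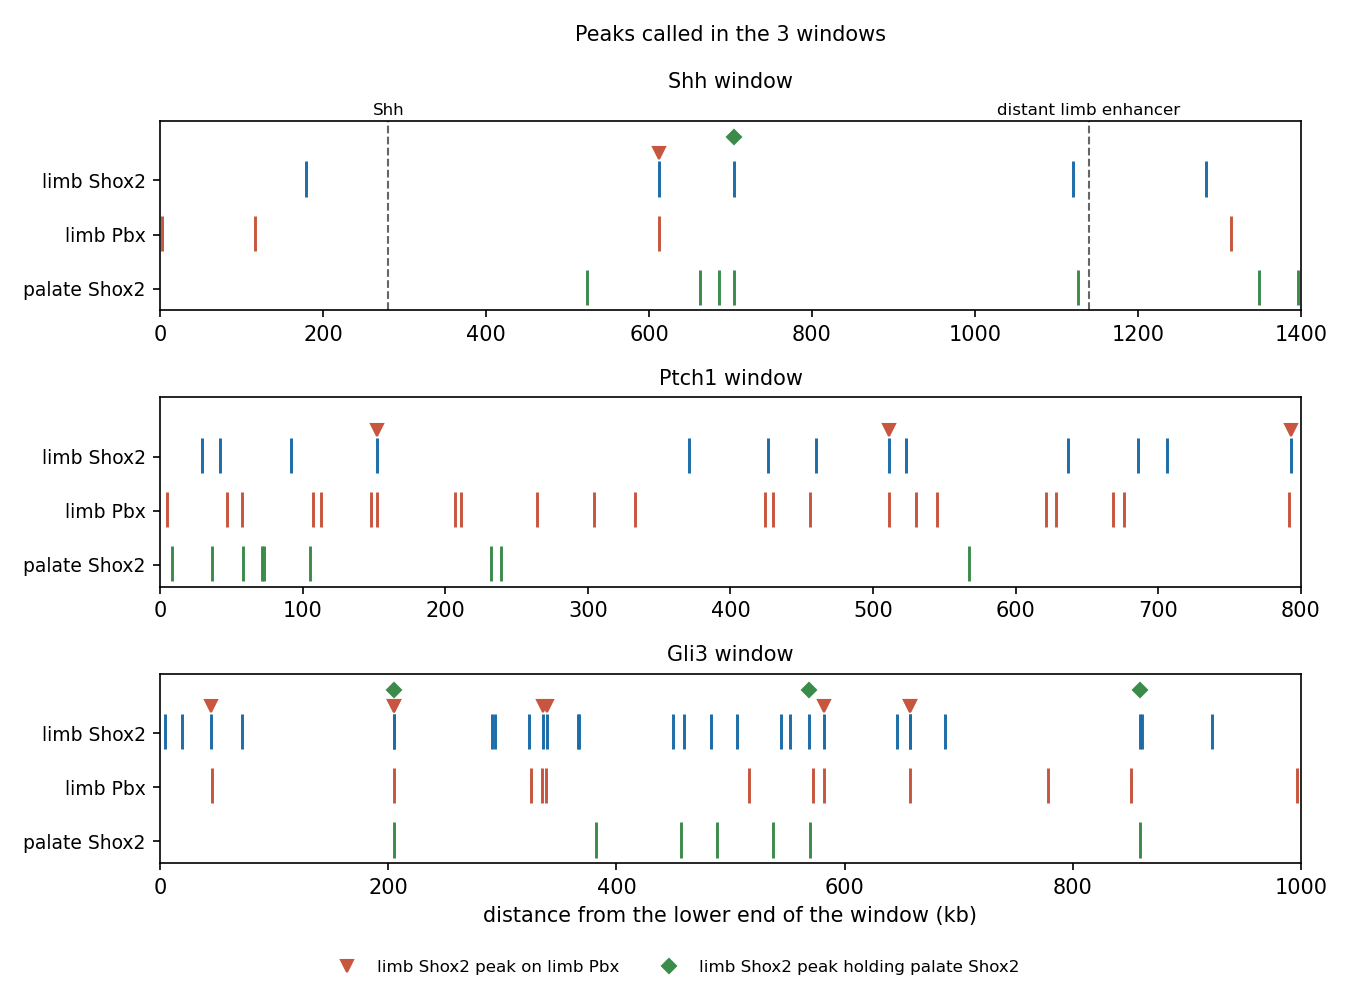
Position of every member along the 3 windows, in kb from the lower end of each window, with a row for each list. Triangles mark the 12 limb Shox2 peaks on limb Pbx, diamonds mark the 4 that hold a palate Shox2 position, and dashed lines mark the positions given for Shh and its distant limb enhancer. Peaks were few in the Shh window, and the Gli3 window has 8 triangles and 3 diamonds.

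The window of the receptor gene Ptch1 held more Pbx than Shox2 peaks. Its 23 limb Pbx peaks were spread over the whole window, with a median spacing of 31.4 kb and no gap above 117 kb. They had a median width of 1118 bp, against 897 bp in the whole Pbx list. Of these, 5 (21.7%) were 2 kb or wider, against 5.26% of the whole Pbx list. The widest, chr13:63345622-63349540, spanned 3919 bp and stood at 1.12% of the list. Its nearest limb Shox2 centre was 4.88 kb away. The next Pbx peak in list order, chr13:63827065-63828072 at 4.64%, also met no Shox2 peak, with the nearest centre 9.74 kb away.

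At these counts, overlap between the limb lists around Ptch1 could not be set apart from the background. Of the 23 Pbx peaks, 3 (13.0%, exact interval 2.78 to 33.6%) overlapped a limb Shox2 peak, against 23.4% of the whole Pbx list, an interval that includes the background. From the other side, 3 of the 13 limb Shox2 peaks (23.1%, 5.04 to 53.8%) lay on Pbx, against 26.5% of the whole Shox2 list, so the count of shared Shox2 peaks was close to the background. With every peak set to 200 bp around its centre, 1 of the 13 (7.69%) lay on Pbx, against 16.4% of the whole list. The first shared site was chr13:63352370-63352545, at 35.1% of the Shox2 list, inside the Pbx peak chr13:63351702-63352945, at 74.4% of the Pbx list. The second, chr13:63710519-63710861, reversed this, with the Shox2 peak at 90.0% and the Pbx peak chr13:63710498-63711615 at 9.34%. The third, chr13:63992455-63992673, lay 793 kb into the 800 kb window, in the Pbx peak chr13:63991841-63992861, with places of 53.7% and 55.9%. At none of the 3 sites did Shox2 and Pbx both stand in the first 50% of their lists. The share of such sites over the whole lists was not computed.

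The 13 limb Shox2 peaks of the Ptch1 window had a median width of 203 bp, against 261 bp in the whole list. Their median place was 53.7%, near the middle of the list, with 5 of 13 in its first 50% and 0 of 13 in its first 10%. The earliest, chr13:63886085-63886486, stood at 17.6%, was 402 bp wide and lay 10.5 kb from the nearest Pbx centre. Even so the window's Shox2 peaks were near Pbx, with a median of 6.86 kb to the nearest Pbx centre, against 12.8 kb over the whole list. That distance depends on the density of Pbx peaks, which was 28.8 per Mb in this window.

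Of the 9 palate Shox2 positions at Ptch1, 0 lay in a limb Shox2 peak (exact interval 0 to 33.6%), against 14.2% of the whole palate list, an interval that includes the background. With 9 positions, a count of 0 allows a share of up to 33.3%. The smallest distance between a palate position and a limb Shox2 centre was 5889 bp. The earliest palate positions, 63305396 and 63438687 on chromosome 13, stood at 3.25% and 3.43% of the palate list, yet their nearest limb Shox2 centres were 13.8 and 86.2 kb away. The site at 63305396 lay 1.59 kb from the centre of a limb Pbx peak without overlapping it. A single palate position, 63257810, lay in a limb Pbx peak, the 2173 bp wide chr13:63256276-63258448, which is 1 of 9 (11.1%) against 15.6% of the whole palate list. In the window, 8 of the 9 palate positions lay below 63.44 Mb and the last lay 328 kb further on, a stretch in which limb Shox2 and limb Pbx peaks were called.

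The window of the effector gene Gli3 held most of the limb Shox2 peaks and most of the shared sites. Of its 28 limb Shox2 peaks, 8 (28.6%, exact interval 13.2 to 48.7%) overlapped limb Pbx, against 26.5% of the whole list, which is near the background. Of its 12 limb Pbx peaks, 6 (50%, 21.1 to 78.9%) overlapped limb Shox2, against 23.4% of the whole Pbx list, an interval that includes the background. At 200 bp a peak, 5 of 28 Shox2 peaks (17.9%) lay on Pbx, against 16.4% of the whole list.

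The Pbx peaks shared with Shox2 at Gli3 stood earlier in the Pbx list than those of the window without Shox2. The 6 Pbx peaks that met Shox2 stood at 1.57% to 59.0% of the Pbx list and the 6 without Shox2 at 73.1% to 99.8%, so the ranges did not overlap. Their medians were 29.1% with Shox2 and 87.0% without. In the Ptch1 window the medians ran the other way, at 55.9% for the 3 with Shox2 and 37.8% for the 20 without, and in the whole Pbx list they were 33.0% and 54.9%. This difference between the loci was not tested. At Gli3 the 6 Pbx peaks with Shox2 were 695 to 2087 bp wide, and the 6 without were 525 to 1036 bp wide. A wider peak overlaps others more readily by construction. The earliest Pbx peaks without Shox2 at Gli3 were chr13:15615789-15616389, at 73.1%, and chr13:15671952-15672978, at 73.5%, with their nearest Shox2 centres 9.98 and 3.34 kb away.

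A single site was called in all 3 lists. It lay in the Gli3 window, where the limb Shox2 peak chr13:15304645-15305133 was 489 bp wide and stood on line 96 of 33915 (0.283%). The limb Pbx peak chr13:15304128-15305457 enclosed it, 1330 bp wide and on line 533 of its list (1.57%). The palate Shox2 position 15304824 was 65 bp from the Shox2 centre and 31 bp from the Pbx centre, on line 1130 of 15091 (7.49%). A second limb Shox2 peak, chr13:15305191-15305400, lay in the same Pbx peak at 68.3% of the list. Sites with all 3 made up 2.30% of the whole limb Shox2 list, and here they were 1 of the 46 limb Shox2 peaks of the 3 windows.

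The next limb Shox2 peaks on Pbx at Gli3, by place in the list, were chr13:15438431-15438726 at 28.9% and chr13:15682305-15682530 at 29.3%. The peak at 28.9% was 160 bp from the centre of its Pbx peak. The peak at 29.3% was 23 bp from it, the closest pair of the 3 windows. A pair of Shox2 peaks, chr13:15756540-15756774 and chr13:15757206-15757408, lay in the same Pbx peak, chr13:15756409-15757828, which stood on line 4078 of the Pbx list although the Shox2 peaks stood at 67.7% and 93.8%. Over the 3 windows, the 12 shared Shox2 peaks fell in 10 Pbx peaks, and 11 lay wholly inside their Pbx peak. That share was not computed for all 8999 shared peaks. Limb Pbx peaks are the wider ones, with a median of 897 bp against 261 bp for limb Shox2, which favours enclosure by construction. The median distance between centres was 174 bp (23 to 578 bp), against 142 bp over all 8999 shared peaks.

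**Figure D3:**
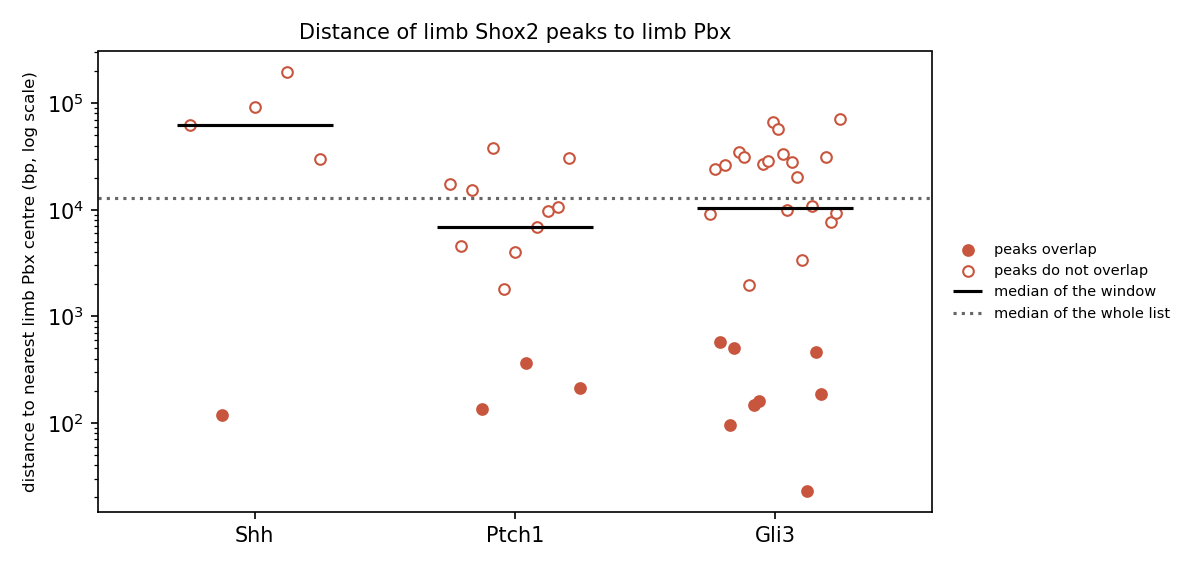
Distance from each limb Shox2 peak of the 3 windows to the centre of the nearest limb Pbx peak, in bp on a log axis. Filled points overlap Pbx and open points do not, black bars are medians of the window, and the dotted line is the median of the whole list, 12.8 kb. The medians were 62.5 kb at Shh, 6.86 kb at Ptch1 and 10.4 kb at Gli3.

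At Gli3, the limb Shox2 peaks that held a palate position stood near the top of the limb list. Of the 7 palate positions, 3 (42.9%, exact interval 9.90 to 81.6%) lay in limb Shox2 peaks, against 14.2% of the whole palate list, an interval that includes the background. With every peak set to 200 bp, the share was 2 of 7 (28.6%), a setting not computed for the whole palate list. The 3 limb peaks that held the palate positions were the earliest 3 of the 28 in the limb list, on lines 96, 776 and 1229. The place of such peaks over the whole limb list was not computed. All 3 were wider than the window's median of 257 bp, and a wider peak holds a position more readily by construction. Besides the site with Pbx, they were chr13:15668466-15669776, 1311 bp wide at 2.29%, and chr13:15958803-15959411, 609 bp wide at 3.62%. In these the palate positions 15669535 and 15959193 stood at 18.0% and 7.40% of the palate list, and 15959193 was the earliest palate position of the window. Neither peak overlapped Pbx, with the nearest Pbx centres 3.34 and 7.63 kb from the limb Shox2 centres.

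Most of the 7 palate positions at Gli3 stood early in their list, but not all. The median place of the 7 was 18.0%. In the first 10% of the list stood 3 of 7 (42.9%), and 6 of 7 were in the first 50%. The whole list's shares are fixed by construction, and no interval was computed for those at Gli3. Median places of the other lists in the Gli3 window were later, at 48.2% for limb Shox2 and 66.0% for limb Pbx. For palate positions at Ptch1 the median place was 51.7%, and at Shh it was 80.1%, with 1 of 7 in the first 50%. The places of the 7 at Gli3 ranged from 7.40% to 93.1% and those at Shh from 24.2% to 96.7%, so the loci overlapped.

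**Figure D4:**
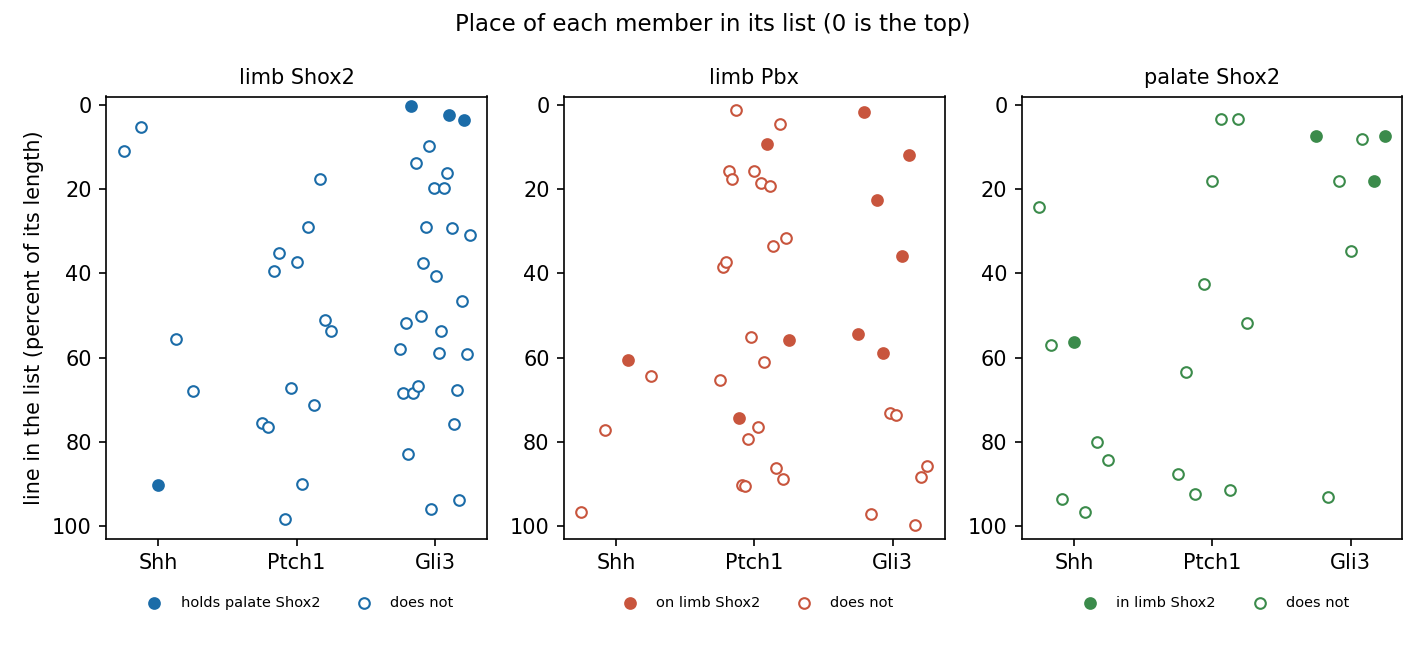
Place of every member in its list, as the line number in percent of the list's length with the top of the list at the top of the axis. Filled points are limb Shox2 peaks that hold a palate position, limb Pbx peaks on limb Shox2 and palate positions in a limb Shox2 peak, and open points are the others. At Gli3 the filled limb Shox2 points are the 3 highest, and the filled Pbx points all stand above the open ones.

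The ratio of limb to palate Shox2 ranged widely on small counts. There were 0.714 limb peaks for each palate position at Shh (exact interval 0.179 to 2.61), 1.44 at Ptch1 (0.571 to 3.83) and 4 at Gli3 (1.71 to 10.8), against 2.25 in the whole lists. All 3 intervals include the value of the whole lists, so at these counts no window could be set apart from the lists by this ratio. In the first 50% of each list, limb and palate peaks numbered 2 and 1 at Shh, 5 and 4 at Ptch1 and 15 and 6 at Gli3. This brought the ratio relative to the whole lists at Gli3 to 1.11, against 1.78 with all peaks, and that at Shh to 0.890, against 0.318. At Ptch1 the ratio moved further from the whole lists, to 0.556, against 0.643. Over the 3 windows together, 4 of 23 palate positions (17.4%, 4.95 to 38.8%) lay in limb Shox2 peaks, against 14.2% of the whole palate list. A further 18 of 23 lay in neither limb list, against 75.3% of the whole palate list. Of the 46 limb Shox2 peaks, 4 held a palate position, against 6.28% of the whole limb list, and 31 met neither Pbx nor a palate position, against 69.5%. A further 11 met Pbx alone, against 24.2% of the whole limb list, 3 met a palate position alone, against 3.97%, and 1 met both.

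**Figure D5:**
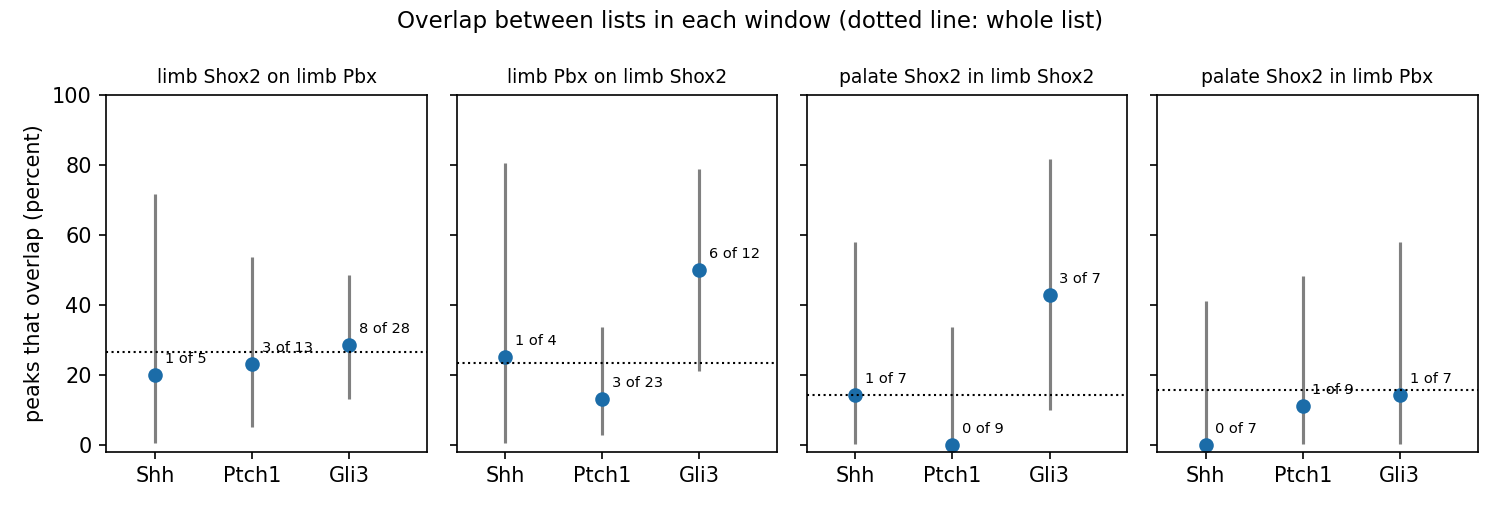
Percent of peaks in the Shh, Ptch1 and Gli3 windows that overlap another list, with 95% exact binomial intervals (grey lines, counting error only) and the counts beside each point. The dotted lines are the shares in the whole lists, 26.5%, 23.4%, 14.2% and 15.6% from left to right, and every interval includes its dotted line. The palate panels count 1 bp positions inside limb peaks, so their shares are not on the scale of the limb panels.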

How the data were processed

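ChIP-seq peak lists of 3 libraries and a list of co-occupied regions were used. The build mm9 and the tools MACS2 and Bowtie are named in the submitters' processing notes. Versions, thresholds and the control behind the peaks: not given in the sources used here. Both limb lists hold the same number of peaks, 33915, and whether a list was cut to that length is unknown. All deposited files carry 3 columns per peak (chromosome and both ends), and the authors gave neither heights nor scores. Line number was read as a ranking only provisionally.

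Peaks were assigned to windows by midpoint, and overlap meant at least 1 bp. Densities used the span between the outermost peaks of each sequence, 2575 Mb in all. Tiles were counted from the start of each of the 29 sequences with peaks. The last tile of each was kept if it held a peak, although it can be shorter than the window. Intervals are 95% exact (Clopper-Pearson) binomial, and a count of 0 allows 3 counts over the number of peaks. These cover counting error only, and no value carries a test. Groups came from sample titles. The overlap code was checked on simulated lists with known answers.

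The members and lists were chosen with earlier results of these data known. Named in each window were the site in all 3 lists, the 3 earliest co-occupied peaks, the 2 earliest Pbx peaks without Shox2, the 2 earliest palate positions and the peaks nearest Shh and its enhancer. Other peaks were named after their values were seen. The positions of Shh and the enhancer came with the choice of windows and were not checked against an annotation. No mm9 genome or annotation was used, so Gli3 and Ptch1 were not placed within their windows, the other Hedgehog pathway genes were not analysed here and no sequence is shown. Python 3.11.15, NumPy 2.4.6, pandas 2.3.3, SciPy 1.17.1 and matplotlib 3.10.9 were used.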

Additional observations from a re-analysis of the deposited data

How the results depend on the processing

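Results for density, limb to palate ratio and overlap (24 in all) were recomputed with windows 100 kb longer or shorter at each end, with the first 50% of each list, on autosomes, and with other definitions of overlap, giving 113 values. Of these, 102 stayed inside the interval of the reported value, and 11 moved outside it. With the first 50% of each list, the Pbx density ratio at Shh fell to 0 and that of palate Shox2 at Shh to 0.244, and the overlaps of limb Shox2 on Pbx at Shh (0 of 2 peaks), of palate in limb Shox2 at Shh (0 of 1), of limb Shox2 on Pbx at Ptch1 (0 of 5), of Pbx on limb Shox2 at Ptch1 (0 of 12) and of palate in Pbx at Ptch1 (0 of 4) were all 0%. Fewer peaks enter by construction, and the matching shares over the whole lists cut to their first 50% were not computed. Requiring 50% of the Pbx peak to be covered left 8.33% of Pbx peaks at Gli3 and 0% at Ptch1 on Shox2, against 6.13% of the whole Pbx list; Pbx peaks are the wider ones, which lowers this share by construction. Palate in Pbx at Ptch1 was 0% with peaks of 200 bp and in the shorter window, where 1 position carried the reported share. No share could be had for Pbx at Shh in the first 50%, where no Pbx peak was left. No paired analysis was possible because every group is a single library, and leaving out a library was likewise not possible. With unknown depth, unbound sites and sites under the threshold look the same.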

Other observations

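The stretches next to the windows showed how far the densities belong to wider regions. The 1 Mb after the Gli3 window held 35 limb Shox2 peaks, more than the 28 of the window itself, with 9 limb Pbx peaks and 7 palate Shox2 positions, whereas the 1 Mb before it held 10, 4 and 3. In the GRCm38 gene order of RefSeq, the protein-coding gene after Gli3 is Inhba, which encodes the beta A subunit of activin and inhibin, but it was not placed in mm9 here, so the extra peaks cannot be assigned to either gene. Lengthening the Gli3 window by 100 kb at each end raised its limb Shox2 peaks to 34 and left its palate positions at 7.

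The Ptch1 window stood above its flanks in every list. It held 13 limb Shox2 peaks, against 5 in the 800 kb before it and 7 in the 800 kb after it, 23 limb Pbx peaks, against 13 and 10, and 9 palate positions, against 2 and 4. The Shh window held 5 limb Shox2 peaks, against 3 in the 1.4 Mb before it and 10 in the 1.4 Mb after it, 4 limb Pbx peaks, against 6 and 13, and 7 palate positions, against 3 and 7. In the GRCm38 gene order, Fancc and Ercc6l2 flank Ptch1, and Rbm33 and Rnf32 flank Shh. These neighbours were not placed in mm9 here, so the peaks of these windows cannot be assigned to a gene either.

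Peaks within 10 kb of each other were joined into groups over the 3 lists. No such groups were counted elsewhere in the genome. A dense window gives more groups by construction, and overlapping peaks always form a group. The median spacing over the 3 lists was 48.0 kb at Shh, 10.5 kb at Ptch1 and 8.96 kb at Gli3. At Gli3, 13 groups held 2 or more peaks, and the fullest had 5 peaks over 14.7 kb (chr13:15668466-15683149) with 2 of limb Shox2, 2 of limb Pbx and 1 of palate Shox2. At Ptch1, 15 groups held 2 or more, and the fullest, chr13:63229185-63247383, had 4 over 18.2 kb. At Shh, 3 groups held 2 peaks each and 10 peaks stood alone.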
